A study of Mus musculus with 6 samples.

Results

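The 43 genes described here encode Toll-like receptors, the proteins that help and carry them, the NF-kB factors below them and the parts of the inflammasome. They were taken by symbol from the 53379 gene identifiers of the count files. Each of the 43 matched 1 identifier, and each passed the filter on low counts. By role they were 11 receptors, 5 co-receptors and trafficking proteins, 9 adaptors and signalling proteins of the IRAK and TRAF6 step, 5 NF-kB subunits, 4 inhibitors and feedback regulators of NF-kB, 5 sensors of the inflammasome and NOD-like families, and 4 inflammasome adaptor and effector genes.

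The data are RNA sequencing counts from the cerebral cortex of C57BL/6 mice at 2 months of age. There were 3 libraries labelled GTF2ird1-/- (replicates 5, 6 and 7), called knockout-labelled below, and 3 labelled wild type (replicates 1, 3 and 4). Gtf2ird1 encodes a transcription factor of the region deleted in Williams syndrome. The sources used here do not say how the allele was made, whether animals were pooled or how cells were isolated. The p-values measure the spread between these libraries, which may in part be technical.

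Toll-like receptors recognise molecules of microbes and of damaged cells at the cell surface or in endosomes. Through the adaptors MYD88 and TRIF and the kinases of the IRAK family they release NF-kB dimers from their inhibitors, and NF-kB then drives inflammatory genes, among them those of its own inhibitors. Inflammasomes are assemblies of a sensor, the adaptor PYCARD and caspase-1 that cut gasdermin D and interleukin 1 beta. In the brain these genes are known mainly from microglia, the resident macrophages.

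The series title describes Gad2+ neurons, but microglial transcripts were far more abundant than GABAergic ones in all 6 libraries. The 15 microglial markers summed to 31042, 39644 and 35190 CPM (counts scaled to a common library size with TMM factors) in knockout-labelled replicates 5, 6 and 7, against 48460, 46613 and 31380 CPM in wild type replicates 1, 3 and 4. The GABAergic list summed to between 669 and 1280 CPM in knockout-labelled libraries and between 308 and 1052 CPM in wild type. Neutrophil markers summed to at most 1.03 CPM and T and NK cell markers to at most 7.93 CPM in any library, with Ly6g at 0 in all 6. The total gene count lay between 16685959 and 30544144 in knockout-labelled libraries and between 13627501 and 28933624 in wild type. Gtf2ird1 itself had 49.7, 40.6 and 48.8 CPM in knockout-labelled libraries and 23.3, 31.5 and 52.7 CPM in wild type (log2 fold change 0.37 ± 0.29, SE; edgeR adjusted p = 0.703), and since a count over the whole gene includes any exons left by the mutation, it does not check the labels. Y-linked transcripts were abundant in knockout-labelled replicates 5 and 6 only (Ddx3y at 150 and 197 CPM, against 1 count in replicate 7 and 0 in wild type). Replicate 7 and the 3 wild type libraries expressed Xist, so sex and genotype overlap in part. In bulk RNA, fewer cells of a type and less RNA per cell cannot be told apart.

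The promoters of 4 members are shown first, because they belong to the 3 inhibitor and feedback genes with an entry that varied together among libraries and to Nlrp3, the member with the smallest p. They come from RefSeq's promoter table (GRCm38.p6, the assembly also named mm10), each running from 250 bases before to 50 bases after an annotated start, 5′ to 3′ on the gene's strand. Capitals mark matches to the kappaB consensus, the motif bound by NF-kB dimers, searched on both strands. Where a gene had several windows in the table, the one with a match is printed: 2 further windows of Nfkbid, 1 of Tnfaip3 and 1 of Nlrp3 held 0 matches and are not shown. The Nfkbia window is chr12:55492598-55492897 on the minus strand, Tnfaip3 is chr10:19015361-19015660 on the minus strand, Nfkbid is chr7:30422156-30422455 on the plus strand, and Nlrp3 is chr11:59541319-59541618 on the plus strand.
Nfkbia: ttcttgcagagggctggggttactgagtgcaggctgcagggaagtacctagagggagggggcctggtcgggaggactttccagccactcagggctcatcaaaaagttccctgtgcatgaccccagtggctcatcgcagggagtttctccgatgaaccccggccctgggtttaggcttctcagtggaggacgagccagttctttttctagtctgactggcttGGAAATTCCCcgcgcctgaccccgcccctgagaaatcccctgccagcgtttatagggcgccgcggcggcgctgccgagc
Tnfaip3: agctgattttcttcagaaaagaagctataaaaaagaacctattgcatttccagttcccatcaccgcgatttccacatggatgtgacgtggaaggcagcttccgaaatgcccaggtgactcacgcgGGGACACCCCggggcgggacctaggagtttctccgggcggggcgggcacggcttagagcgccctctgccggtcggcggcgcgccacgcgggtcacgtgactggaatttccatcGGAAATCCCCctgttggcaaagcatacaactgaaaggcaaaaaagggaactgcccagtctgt
Nfkbid: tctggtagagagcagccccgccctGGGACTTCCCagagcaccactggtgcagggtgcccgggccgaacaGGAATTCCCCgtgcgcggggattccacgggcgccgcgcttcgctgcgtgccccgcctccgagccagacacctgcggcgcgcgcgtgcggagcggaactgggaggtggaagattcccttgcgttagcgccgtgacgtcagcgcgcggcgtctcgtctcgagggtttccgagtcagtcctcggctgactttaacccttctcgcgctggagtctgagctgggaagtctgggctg
Nlrp3: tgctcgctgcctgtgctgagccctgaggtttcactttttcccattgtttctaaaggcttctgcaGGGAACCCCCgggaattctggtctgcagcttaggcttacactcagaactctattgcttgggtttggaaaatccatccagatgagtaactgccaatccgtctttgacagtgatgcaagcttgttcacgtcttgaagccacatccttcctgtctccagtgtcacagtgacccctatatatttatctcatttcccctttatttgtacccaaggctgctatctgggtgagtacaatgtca

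The matches began 29 bases before the start in Nfkbia, 125 and 12 bases before it in Tnfaip3, 226 and 181 bases before it in Nfkbid and 186 bases before it in Nlrp3. Of the 33 members with an entry in the table, 9 held a kappaB match in at least 1 window (27.3%), against 5.14% of the 27025 genes in the table. The 9 were Tlr2, Tlr3, Nfkb2, Rel, Nfkbia, Nfkbid, Tnfaip3, Nlrp3 and Casp4. The AP-1 motif TGANTCA was in 3 of 33 members (Tlr9, Nfkb2 and Tnfaip3), or 9.09%, against 8.97% of all genes. GAGGAAGT, a form of the core bound by the myeloid factor PU.1, was in 6 members (Tlr1, Tlr9, Rel, Nfkbid, Aim2 and Pycard), or 18.2%, against 3.69% of all genes. GGATTA, a core bound by the GTF2IRD1 protein, was in 2 members (Tlr8 and Nlrc4), or 6.06%, against 8.14% of all genes. These 3 motifs were also searched on both strands, and the matches of different motifs did not overlap in any member window listed here. A match is a stretch of letters and not a binding site.

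Levels of different genes were compared per length, as TMM-normalized CPM divided by annotated exonic length in kilobases (RPKM). Unc93b1, which encodes the chaperone that carries the nucleic acid receptors to endosomes, was the most abundant member, with 277 ± 25.8 RPKM in knockout-labelled libraries and 354 ± 53.1 RPKM in wild type (SD, n = 3 each), rank 43 of 13686 protein-coding genes tested. Ly86, the MD-1 partner of CD180, followed at a mean of 121 RPKM over the 6 libraries. Cd14, the co-receptor that hands lipopolysaccharide to TLR4, had 88.3 RPKM and Nfkbia, the classical inhibitor of NF-kB, 87.2 RPKM, with library ranges of 35.9 to 141 and 21.2 to 128, so that their order was not resolved. Irak3, an inhibitory kinase-like protein of macrophages, was the lowest at 0.337 RPKM, with 28, 13 and 46 counts in the knockout-labelled libraries and 35, 20 and 19 in wild type.

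Among the receptors the order of levels per length was Tlr7, Tlr13, Tlr4, Tlr2, Tlr9, Tlr6, Tlr1, Tlr3, Tlr12, Tlr5 and Tlr8, from 79.1 to 1.55 RPKM. Tlr7 and Tlr13 led: Tlr7, which senses single-stranded RNA, ranged from 61.7 to 96.5 RPKM over the libraries and Tlr13, which senses bacterial ribosomal RNA, from 39.7 to 70.5. These neighbours overlapped, as did Tlr4 (22.0 to 35.4 RPKM), the receptor for lipopolysaccharide, and Tlr2 (18.7 to 40.05 RPKM), the receptor for lipopeptides. The sensor order was Aim2 at 31.8 RPKM, which binds DNA in the cytosol, Nlrp3 at 22.0, Nod1 at 6.46, Nlrc4 at 0.862 and Nod2 at 0.859. The last pair was not resolved, with library ranges of 0.358 to 1.72 RPKM for Nlrc4 and 0.406 to 1.86 RPKM for Nod2. Gsdmd, the gasdermin that forms the pore of pyroptosis, had 55.5 RPKM, Pycard 25.2, Casp1 13.97 and Casp4, which encodes the mouse caspase-11, 3.51. Relative to all protein-coding genes tested, 8 members lay in the top 5 percent by level and Irak3 at 92.6 percent.

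**Figure D1:**
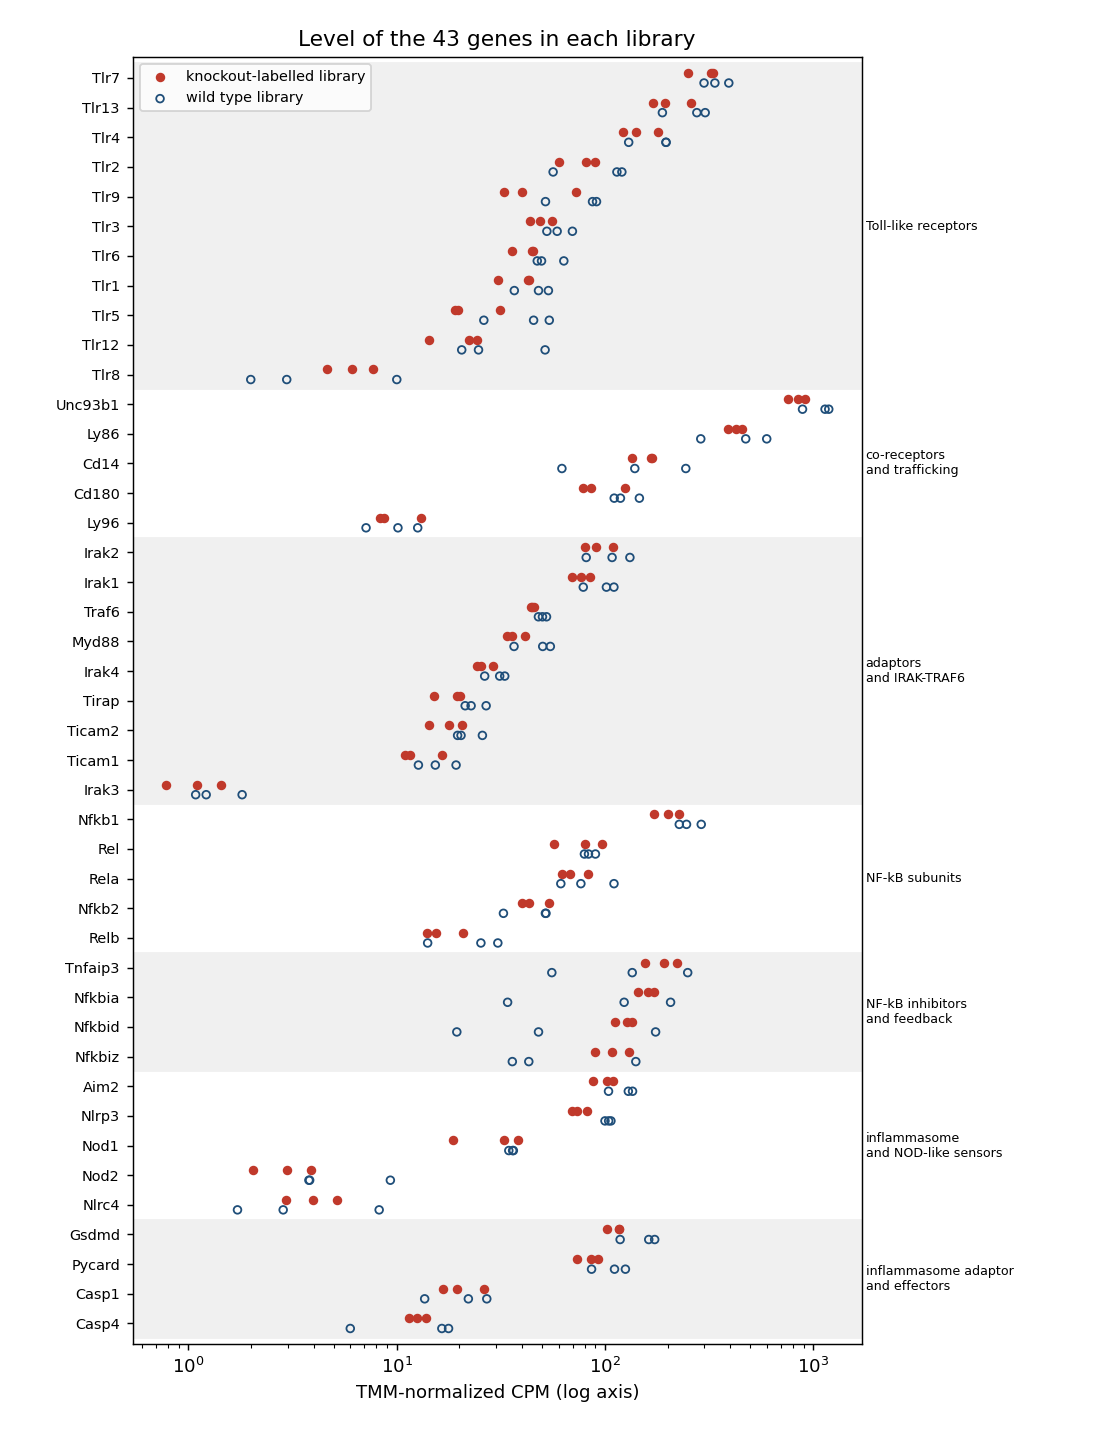
Level of each of the 43 genes in TMM-normalized CPM (log axis) by role, with knockout-labelled libraries as filled points above wild type as open points, 3 libraries each. Unc93b1 lay between 758 and 1189 CPM and Irak3 between 0.779 and 1.81 CPM, and the wild type points of Nfkbia, Nfkbid, Nfkbiz and Tnfaip3 were spread over 3.92 to 9.01 fold.

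No member passed the threshold between the groups. At an edgeR adjusted p of 0.05, 0 of 43 members were called in either direction, where 1 of 17221 genes was called (0.00581%). DESeq2 and limma-voom also called 0 of 43, where DESeq2 called 0.0889% of all genes higher and 0.0356% lower. The other settings called 0 of 43 too, except that without wild type replicate 1 there was 1 higher. Their shares of all genes called higher were 0.0116% with the microglial scaling, 0.013% without the expression filter (0.00325% lower), 0.0312% without wild type replicates 3 and 4 (0.0104% lower) and between 0.00552% and 1.77% without 1 library. By library left out they were 1.77% without wild type replicate 1 (0.0866% lower), 0.00552% without wild type 3, 0.0167% without wild type 4, and 0.00585%, 0.00553% and 0.029% without knockout-labelled replicates 5, 6 and 7. At an unadjusted p under 0.05, 3 members were lower in the knockout-labelled libraries (6.98%) and 0 were higher, where 2.77% of all genes tested were lower, 4.48% higher and 7.25% either. The groups did not overlap for 6 members, all lower in the knockout-labelled libraries (14%), where 6.68% of all genes tested were separated in that direction and 6.34% in the other. Overlap of single genes was judged with the TMM scaling alone.

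The fitted log2 fold changes lay between -0.91 and 0.62 and were mostly below 0. With the TMM scaling 35 of 43 members had a negative log2 fold change (81.4%, against 53.7% of all genes tested), and the median was -0.27, against -0.03 over all genes. Other scalings moved the median of all genes by over 0.1: with library totals it was 0.11 and with scaling to the microglial markers 0.23, and the members' medians were then -0.11 and 0.02, with 12 and 22 of 43 positive. Relative to the median of all genes, the members' median was thus -0.24 with TMM, -0.22 with library totals and -0.21 with the microglial scaling. In the libraries that expressed Xist alone, knockout-labelled replicate 7 against wild type, it was -0.11, against -0.06 over all genes.

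The microglial markers moved with the members. All 15 microglial markers had a negative log2 fold change with TMM, with a median of -0.31, and none passed. The 43 genes summed to 3730, 4487 and 4552 CPM in knockout-labelled replicates 5, 6 and 7, against 5636, 5221 and 3768 CPM in wild type replicates 1, 3 and 4. As a share of the summed microglial markers this was 12.02%, 11.3% and 12.9% in the knockout-labelled libraries, against 11.6%, 11.2% and 12.01% in wild type. The members' sum was a near constant share of the microglial sum over the 6 libraries, and the groups overlapped in both measures.

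**Figure D2:**
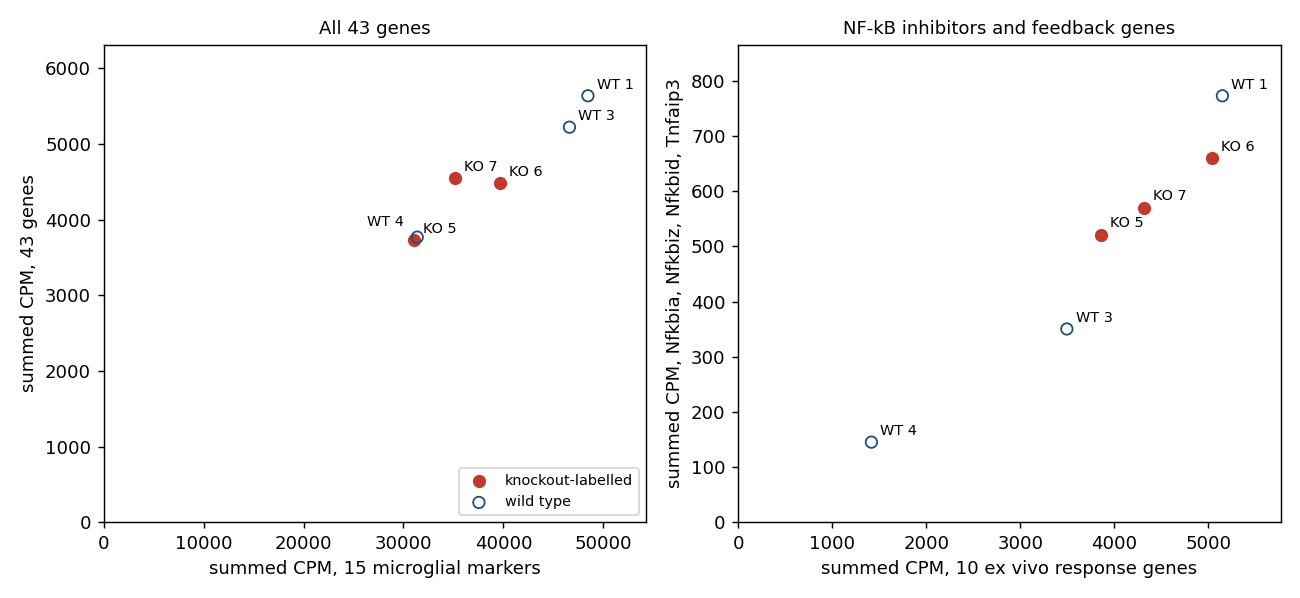
Left, summed CPM of the 43 genes against summed CPM of 15 microglial markers; right, summed CPM of Nfkbia, Nfkbiz, Nfkbid and Tnfaip3 against summed CPM of 10 genes of the ex vivo isolation response, each point 1 library with its replicate number (filled, knockout-labelled; open, wild type). On the left knockout-labelled replicate 5, at 3730 CPM, lies beside wild type replicate 4, at 3768 CPM; on the right wild type replicates 3 and 4 lie lowest, at 350 and 145 CPM.

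Of the 11 receptors, 10 had a negative log2 fold change, with a median of -0.30. Tlr5, the receptor for flagellin, had 19.0, 19.8 and 31.3 CPM in knockout-labelled replicates 5, 6 and 7, against 26.2, 45.5 and 54.1 CPM in wild type replicates 1, 3 and 4. The groups overlapped through knockout-labelled replicate 7 and wild type replicate 1. Its fitted log2 difference was -0.84 ± 0.31 (SE; edgeR unadjusted p = 0.0287, adjusted p = 0.637), and it was -0.19 when wild type replicates 3 and 4 were both left out and -0.42 in the Xist-expressing libraries alone. Tlr9, which senses DNA with CpG motifs, had 32.8, 39.9 and 72.7 CPM in the knockout-labelled libraries and 51.9, 87.3 and 91.2 CPM in wild type. Knockout-labelled replicate 7 was above wild type replicate 1, with a fitted log2 difference of -0.66 ± 0.34 (SE; edgeR adjusted p = 0.637), or -0.08 in the Xist-expressing libraries alone.

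Tlr6, which pairs with TLR2 to sense diacylated lipopeptides, was the only receptor whose groups did not overlap. It had 35.9, 45.2 and 44.7 CPM in the knockout-labelled libraries, against 63.5, 49.7 and 47.4 CPM in wild type (log2 fold change -0.35 ± 0.17, SE; edgeR adjusted p = 0.637). The gap between the groups, from 45.2 to 47.4 CPM, was narrow. Tlr1, which pairs with TLR2 to sense triacylated lipopeptides and lies beside Tlr6 on chromosome 5, had 30.6, 42.9 and 43.01 CPM in the knockout-labelled libraries, against 53.6, 48.0 and 36.8 CPM in wild type. Of the 50-base stretches in Tlr1 transcripts 15.4% also occur in other genes, mostly Tlr6, and of those in Tlr6 12.3%, mostly in Tlr1, so the split of reads between this pair is uncertain.

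Tlr7 (ENSMUSG00000044583.13, X chromosome, 167304929 to 167330558, minus strand) had 252, 324 and 330 CPM in knockout-labelled libraries and 394, 338 and 299 CPM in wild type. The groups overlapped and the fold was 0.879 (95% interval 0.663 to 1.17; edgeR adjusted p = 0.743). Of the 4 X-linked members, Tlr7, Tlr13 and Irak1 were lowest in knockout-labelled replicate 5, one of the libraries with abundant Y-linked transcripts. Replicate 5 was the lowest library for 23 of all 43 members (53.5%), against 19.2% of all genes tested. In replicate 6, also with abundant Y-linked transcripts, Tlr7, Tlr13 and Irak1 had 324, 258 and 76.9 CPM, against 330, 195 and 85.2 CPM in replicate 7. In the Xist-expressing libraries alone the log2 fold changes of Tlr7, Tlr13 and Irak1 were -0.06, -0.40 and -0.19, against -0.19, -0.30 and -0.33 over all libraries. Tlr8, the fourth and the only receptor with a positive log2 fold change (0.27 ± 0.59, SE; edgeR adjusted p = 0.89), had 119, 102 and 246 counts in knockout-labelled libraries and 288, 22 and 52 in wild type, a spread of 5.03 fold in wild type CPM. The remaining receptors Tlr2, Tlr3, Tlr4, Tlr12 and Tlr13 had log2 fold changes between -0.67 and -0.24 with overlapping groups.

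Among the co-receptors, Unc93b1 (chromosome 19, 3935186 to 3949340, plus strand) had 758, 844 and 914 CPM in the knockout-labelled libraries, against 1142, 1189 and 890 CPM in wild type. Wild type replicate 4 lay below knockout-labelled replicate 7, and the fold was 0.781 (95% interval 0.582 to 1.05; edgeR adjusted p = 0.637). Cd180, a decoy-like relative of the receptors that dampens the TLR4 response, had the largest difference of this role, with 78.5, 85.7 and 124 CPM in the knockout-labelled libraries and 119, 111 and 147 CPM in wild type (log2 fold change -0.38 ± 0.21, SE; edgeR adjusted p = 0.638). Cd14 behaved unlike its neighbours in spread: it had 136, 169 and 166 CPM in the knockout-labelled libraries and 245, 139 and 62.2 CPM in wild type, a 3.94 fold range within wild type. Ly96, which encodes the MD-2 subunit of the TLR4 complex, averaged 10.05 ± 2.67 CPM in knockout-labelled libraries and 9.97 ± 2.75 CPM in wild type (SD, n = 3 each).

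All 9 adaptor and IRAK or TRAF6 genes had a negative log2 fold change with TMM, between -0.37 and -0.17, and none passed. Tirap and Traf6 did not overlap between groups. Tirap, the adaptor that brings MYD88 to receptors at the plasma membrane, had 15.1, 20.3 and 19.5 CPM in the knockout-labelled libraries and 22.8, 26.9 and 21.3 CPM in wild type (log2 fold change -0.37 ± 0.18, SE; edgeR adjusted p = 0.637). Traf6, the ubiquitin ligase on which the IRAK step converges, had 44.0, 44.6 and 45.7 CPM in the knockout-labelled libraries, against 48.0, 52.5 and 50.2 CPM in wild type. Its coefficient of variation was the smallest of all members in the knockout-labelled libraries, at 1.95%, and was 4.47% in wild type, where Nod1 and Nlrp3 varied less, and its fitted difference of -0.17 ± 0.12 on the log2 scale (SE; edgeR adjusted p = 0.682) was 0.088 with the microglial scaling. Irak2, the kinase of this role with the highest level per length, had 90.9, 80.0 and 110 CPM in the knockout-labelled libraries and 108, 132 and 81.4 CPM in wild type, with overlapping groups. Myd88, the shared adaptor, had a fold of 0.785 (95% interval 0.585 to 1.05), and 11.3% of its exonic bases overlap Acaa1a on the other strand, whose reads cannot be told apart where counting ignores strand. The same limit holds for other members, among them Pycard (12.8% of exonic bases, Gm45205), Nfkb2 (11.6%, AC114539.1) and Tirap (9.05%, Gm39318). Ticam1 and Ticam2, which encode the adaptors TRIF and TRAM of the MYD88-independent branch, had log2 fold changes of -0.27 and -0.32, and the kinases Irak1 and Irak4 and the inhibitory Irak3 had -0.33, -0.20 and -0.28, all with overlapping groups. Of the 50-base stretches in Ticam2 transcripts 14.7% also occur in other genes, of which Tmed7 shares the most.

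Of the 5 NF-kB subunits, 4 had a negative log2 fold change. Nfkb1, which encodes p105 and p50, had 173, 201 and 227 CPM in the knockout-labelled libraries and 247, 290 and 228 CPM in wild type. The groups were separated by about 1 CPM, between knockout-labelled replicate 7 and wild type replicate 4 (log2 fold change -0.35 ± 0.16, SE; edgeR adjusted p = 0.637). Rela, the p65 subunit, had the highest level per length of the 5, with 68.3, 62.3 and 83.1 CPM in knockout-labelled libraries and 76.7, 111 and 61.5 CPM in wild type. Its log2 fold change of -0.22 became 0.051 when wild type replicate 3 was left out. Relb, a subunit of the alternative pathway, had 15.4, 14.02 and 20.9 CPM in the knockout-labelled libraries, against 25.4, 30.6 and 14.1 CPM in wild type (log2 fold change -0.48 ± 0.30, SE; edgeR adjusted p = 0.669). The log2 fold change was -0.23 without wild type replicate 3 and -0.73 without wild type replicate 4. Rel averaged 78.1 ± 19.8 CPM in knockout-labelled libraries and 84.5 ± 5.23 CPM in wild type, and Nfkb2 averaged 45.7 ± 7.49 CPM in knockout-labelled libraries and 45.5 ± 11.2 CPM in wild type (SD, n = 3 each).

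The 4 inhibitor and feedback genes of NF-kB were the only role in which every member had a positive log2 fold change with TMM, and none passed. They were spread widely among the wild type libraries and little among the knockout-labelled ones. Nfkbia (ENSMUSG00000021025.8, chromosome 12, 55489410 to 55492647, minus strand) had 145, 172 and 161 CPM in knockout-labelled replicates 5, 6 and 7, against 207, 124 and 34.1 CPM in wild type replicates 1, 3 and 4. Wild type replicate 1 was above and replicates 3 and 4 were below the knockout-labelled libraries. Tnfaip3, which encodes the ubiquitin-editing enzyme A20, had 156, 222 and 192 CPM in the knockout-labelled libraries, against 250, 135 and 55.6 CPM in wild type. Nfkbid, the nuclear inhibitor IkBNS, had 112, 136 and 128 CPM in the knockout-labelled libraries, against 175, 48.0 and 19.5 CPM in wild type. Nfkbiz, the nuclear protein IkB zeta that assists NF-kB at secondary response genes, had 108, 131 and 89.2 CPM in the knockout-labelled libraries, against 141, 43.1 and 36.0 CPM in wild type. In each of the 4 the knockout-labelled libraries lay inside the range of wild type.

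The coefficients of variation of these 4 genes lay between 8.52% and 19.1% in the knockout-labelled libraries and between 66.5% and 103% in wild type. The medians of the other 39 members were 16.4% in knockout-labelled libraries and 20.96% in wild type, with ranges of 1.95% to 43.9% and 2.67% to 87.7%. The wide wild type spread was not limited to the 4 genes: Tlr8 had 87.7% and Nlrc4 81.6%, above Nfkbia (71.0%) and Tnfaip3 (66.5%). The log2 fold changes of the 4 inhibitor and feedback genes were 0.39 ± 0.53 for Nfkbia, 0.37 ± 0.47 for Tnfaip3, 0.62 ± 0.67 for Nfkbid and 0.57 ± 0.50 for Nfkbiz (SE), with edgeR adjusted p between 0.728 and 0.829. With the microglial scaling they were larger, between 0.74 and 1.04, and none passed (edgeR adjusted p between 0.56 and 0.618). The median of the other 39 members was then -0.02, with 18 of them positive. The 95% interval of the fold of Nfkbid ran from 0.516 to 4.61, so a decrease to 0.516 fold, no change and an increase of several fold all lay within it. The sum of the 4 genes was 13.98%, 14.7% and 12.5% of the sum of all members in knockout-labelled libraries, against 13.7%, 6.71% and 3.85% in wild type replicates 1, 3 and 4. Without wild type replicate 1 Nfkbiz passed as higher (log2 fold change 1.47, edgeR adjusted p = 0.0371), 1 of 43 members in a setting that called 1.77% of all genes tested as higher. With wild type replicates 3 and 4 both left out, the log2 fold changes of Nfkbia, Nfkbid and Nfkbiz were -0.40, -0.51 and -0.39. In that setting 0 of 43 members had a positive log2 fold change, so Tnfaip3 was not positive either.

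**Figure D3:**
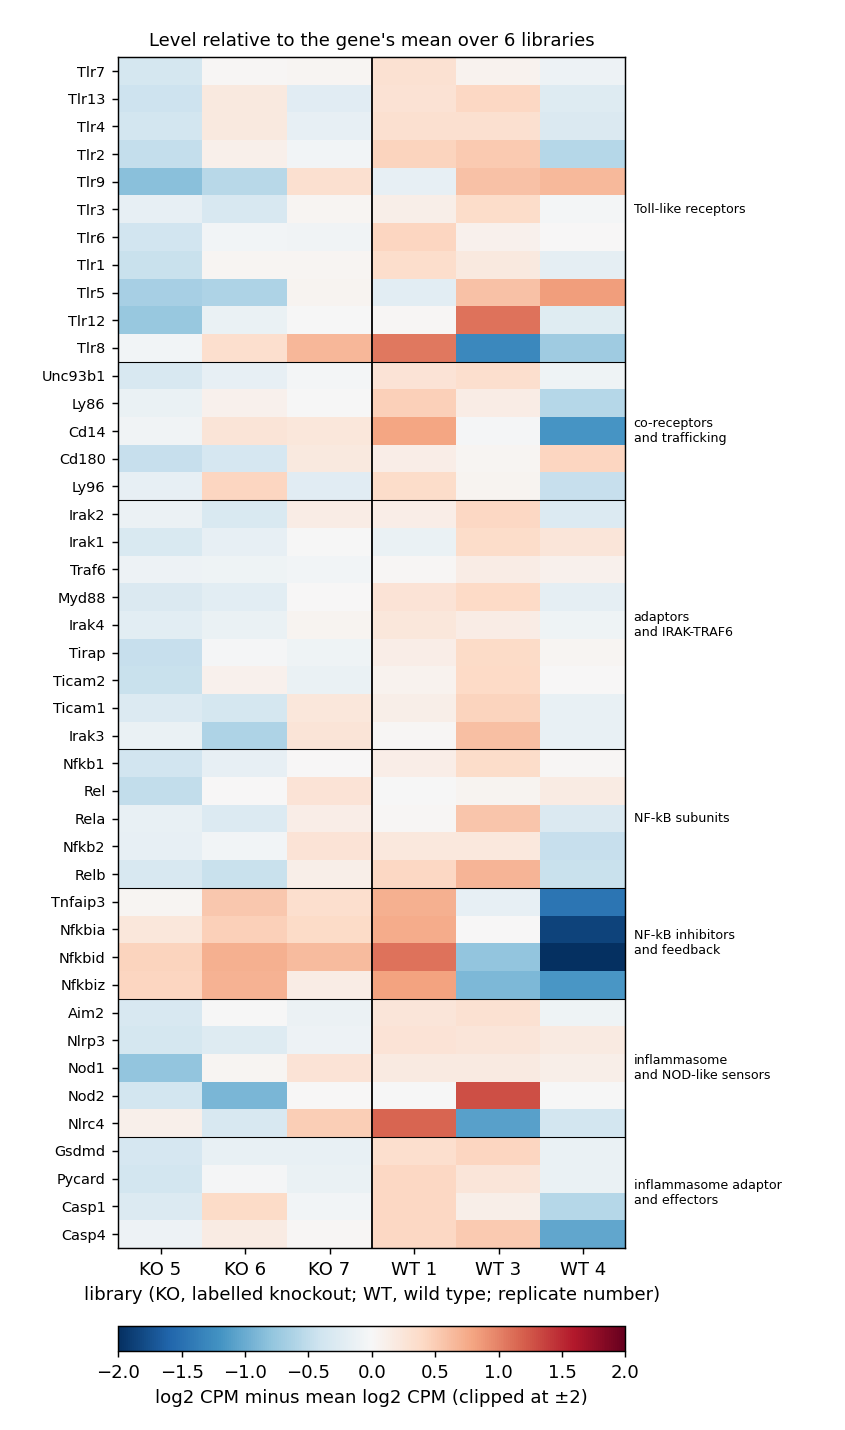
Level of each gene in each library as log2 CPM minus the gene's mean over the 6 libraries, with knockout-labelled replicates 5, 6 and 7 left of wild type replicates 1, 3 and 4, and values beyond 2 drawn at the end of the colour scale. The 4 inhibitor and feedback genes are low in wild type replicates 3 and 4, where Nfkbid had 48.0 and 19.5 CPM, while most other members are highest in wild type replicate 1 or 3.

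Some other measures of the libraries also set wild type replicates 3 and 4 apart, and others did not. The first principal component of log2 CPM over all genes tested, the axis of largest variation, held 50.7% of the variance. On it wild type replicates 3 and 4 lay at 52.9 and 44.3. Wild type replicate 1 lay at -11.8, and knockout-labelled replicates 5, 6 and 7 at -46.0, -22.4 and -17.0. The split within wild type was thus not particular to the 4 genes. The 10 genes of the ex vivo response, immediate early and heat shock genes that are known to rise when brain cells are dissociated, summed to 3855, 5040 and 4315 CPM in knockout-labelled libraries and to 5148, 3495 and 1417 CPM in wild type. From high to low this order was wild type 1, knockout-labelled 6, 7 and 5, then wild type 3 and 4, and Nfkbia, Nfkbid and Tnfaip3 had exactly that order, as did 78 of 17221 genes tested (0.453%). The comparison of orders was chosen after the values were seen, and with library totals as scaling 5 members had it (Ly86, Nfkbia, Nfkbid, Tnfaip3 and Casp1), against 0.61% of all genes. Astrocyte markers summed to between 3376 and 6041 CPM in knockout-labelled libraries, against 3418, 576 and 277 CPM in wild type replicates 1, 3 and 4. Oligodendrocyte markers summed to between 2015 and 2438 CPM in knockout-labelled libraries, against 2411, 551 and 167 CPM in wild type. Replicates 3 and 4 of wild type were the lowest of the 6 libraries in both. Markers of border-associated macrophages summed to 683, 722 and 811 CPM in knockout-labelled libraries and to 1100, 334 and 429 CPM in wild type. GABAergic markers went otherwise, with 1280, 832 and 669 CPM in knockout-labelled libraries and 355, 308 and 1052 CPM in wild type. Monocyte markers did too, with 330, 306 and 224 CPM in knockout-labelled libraries and 126, 107 and 356 CPM in wild type. A few genes made up most of this sum: the median monocyte marker had 0.391 to 0.957 CPM per library. Only 5 of the 8 monocyte markers passed the filter on low counts. Reads outside genes made up 46.8%, 51.2% and 50.1% in the knockout-labelled libraries, against 39.95%, 57.6% and 58.2% in wild type. The part of these differences in the values of the 4 genes was not tested.

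The other 39 members had no single order of libraries in common. Of these, 23 were lowest in knockout-labelled replicate 5 (59%), against 19.2% of all genes tested, and 8 were lowest in wild type replicate 4 (20.5%), against 25.6% of all genes. Wild type replicate 3 was the highest library for 21 (53.8%), against 23.6% of all genes, and wild type replicate 1 for 11 (28.2%), against 16.4% of all genes. Wild type replicate 3 also stood apart in quality. Genes annotated as ribosomal RNA, with 8 further structural or rRNA-like genes, took 3.51% to 8.54% of gene counts in the knockout-labelled libraries, against 21.1% in wild type replicate 3 and 4.68% and 5.86% in wild type replicates 1 and 4. Ambiguous reads made up 1.94% to 8.63% in the knockout-labelled libraries, against 14.5% in wild type replicate 3 and 2.32% and 2.69% in the other wild type libraries. TMM factors were 1.002 to 1.11 in the knockout-labelled libraries, against 0.811 in wild type replicate 3 and 0.994 and 1.06 in wild type replicates 1 and 4. The part of these signs in the members' values was not tested, and without wild type replicate 3 the median log2 fold change of the 43 genes was -0.17.

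The 5 inflammasome and NOD-like sensors all had a negative log2 fold change with TMM. Nlrp3 (ENSMUSG00000032691.14, chromosome 11, 59541568 to 59566956, plus strand), the sensor of membrane damage and potassium efflux, had the smallest p of all members. It had 69.5, 73.6 and 82.2 CPM in knockout-labelled replicates 5, 6 and 7, against 107, 104 and 100.2 CPM in wild type replicates 1, 3 and 4. In TMM-normalized CPM, the only scale on which overlap of single genes was judged, the groups did not overlap. The spread within each was small on that scale: knockout-labelled libraries averaged 75.1 ± 6.47 CPM and wild type 104 ± 3.43 CPM (SD, n = 3 each). The fold was 0.723 (95% interval 0.594 to 0.881), with a log2 fold change of -0.47 ± 0.12 (SE; edgeR unadjusted p = 0.0057, adjusted p = 0.637). The log2 fold change lay between -0.52 and -0.41 with any 1 library left out and was -0.21 with the microglial scaling (edgeR adjusted p = 0.748).

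Aim2 had 87.8, 109 and 102 CPM in knockout-labelled libraries and 130, 136 and 104 CPM in wild type, overlapping through wild type replicate 4. Nod2, which senses muramyl dipeptide, had few reads, with 76, 34 and 124 counts in knockout-labelled libraries and 109, 103 and 67 in wild type (log2 fold change -0.91 ± 0.46, SE; edgeR adjusted p = 0.637). Its 2.97, 2.04 and 3.87 CPM overlapped the 3.79, 9.33 and 3.82 CPM of wild type, where replicate 3 stood apart. The fitted difference was the largest of all members with all libraries and -0.35 without wild type replicate 3. Nod1, which senses another peptidoglycan fragment, and Nlrc4, the partner of the NAIP receptors, had log2 fold changes of -0.25 and -0.11 with overlapping groups.

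Gsdmd (ENSMUSG00000022575.4, chromosome 15, 75862327 to 75867408, plus strand) had the smallest p among the adaptor and effector genes. It had 102, 117 and 117 CPM in the knockout-labelled libraries, against 163, 174 and 118 CPM in wild type. The groups did not overlap, but wild type replicate 4 lay about 1 CPM above knockout-labelled replicate 6. The fold was 0.741 (95% interval 0.561 to 0.978), with a log2 fold change of -0.43 ± 0.17 (SE; edgeR unadjusted p = 0.0375, adjusted p = 0.637) and of -0.14 with the microglial scaling. Pycard, the adaptor that joins sensors to caspase-1, had 73.1, 93.0 and 86.2 CPM in knockout-labelled libraries and 126, 111 and 86.3 CPM in wild type. The caspase genes differed little between groups beside their spread: Casp1 averaged 20.9 ± 4.95 CPM in knockout-labelled libraries and 20.95 ± 6.81 CPM in wild type, and Casp4 averaged 12.6 ± 1.21 CPM in knockout-labelled libraries and 13.4 ± 6.46 CPM in wild type (SD, n = 3 each).

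**Figure D4:**
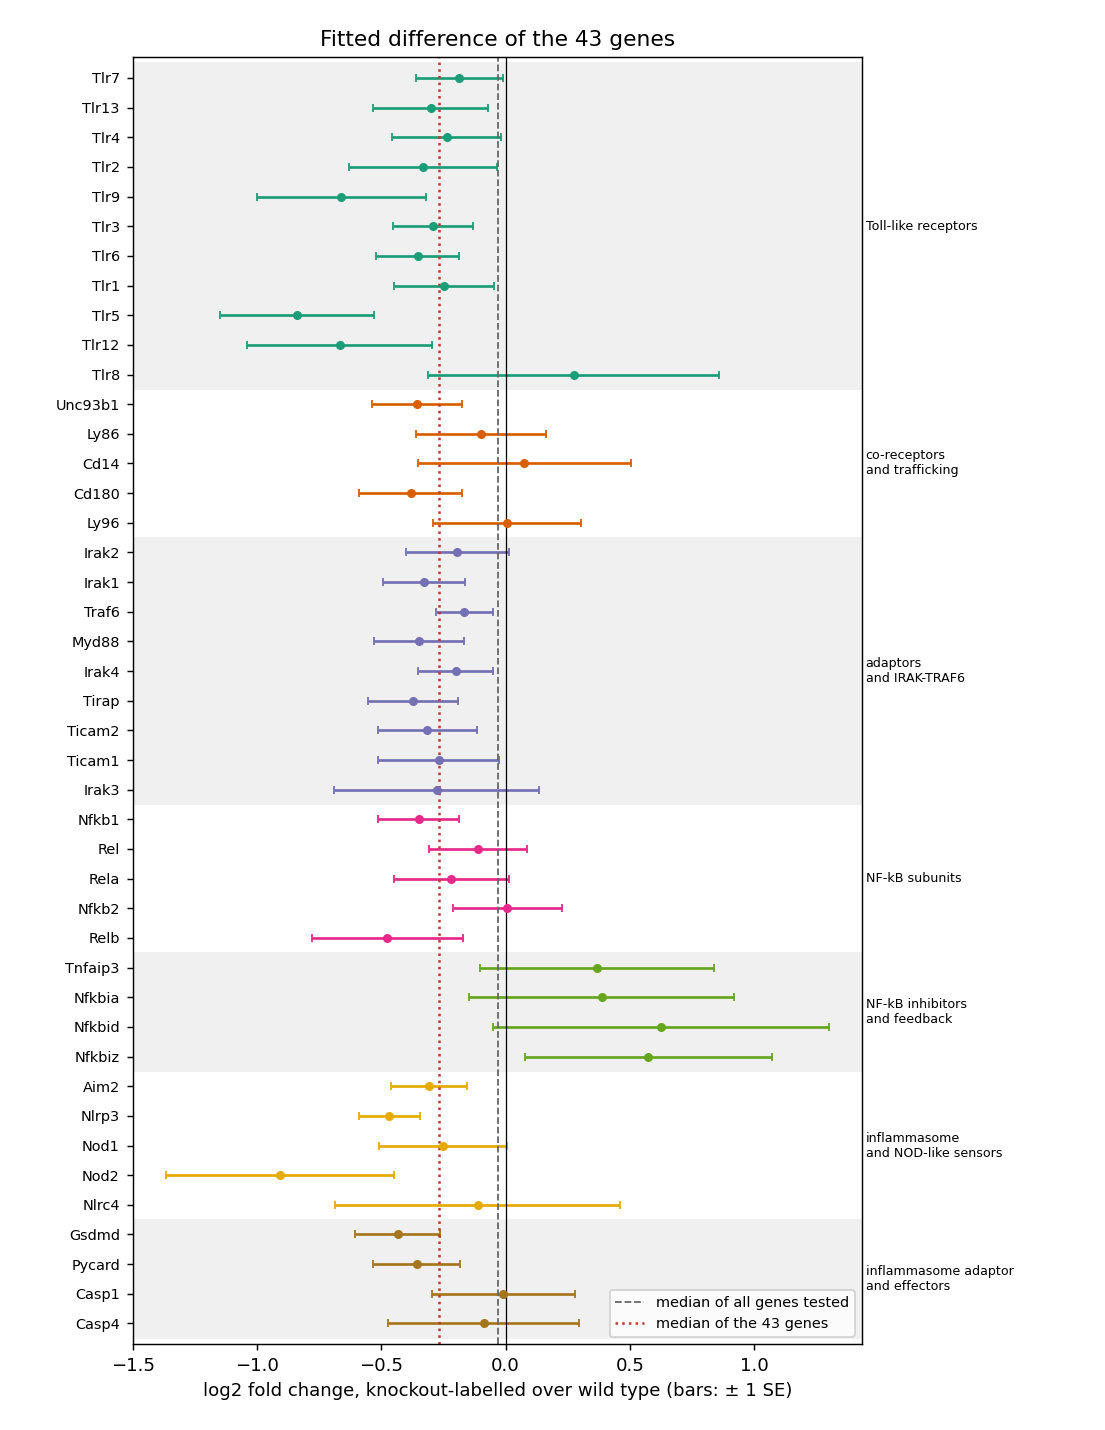
Fitted log2 fold change of the 43 genes, knockout-labelled over wild type, with bars of 1 SE, by role; the dashed line is the median of all genes tested (-0.03) and the dotted line that of the 43 genes (-0.27). The 4 inhibitor and feedback genes lie between 0.37 and 0.62 with wide bars, and Nlrp3 lies at -0.47 with a narrow bar.

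The rest of the pathway was followed in 134 further genes, of which 118 passed the filter and 0 passed an edgeR adjusted p of 0.05 in either direction. At an unadjusted p under 0.05, 5 were lower (4.24%) and 0 higher, where 2.77% of all genes tested were lower and 4.48% higher. DESeq2 and limma-voom called 0 of these genes, where DESeq2 called 0.0889% of all genes higher and 0.0356% lower. The median log2 fold change of the 118 was -0.14 with TMM. By list it was -0.12 for ligand handling and trafficking partners (11 tested), -0.15 for the TAK1, IKK and TBK1 kinases and ubiquitin enzymes (30 tested), -0.11 for further inhibitors (21 tested), -0.35 for the interferon regulatory factors (5 tested), -0.28 for further inflammasome, caspase and pyroptosis genes (25 tested) and 0.16 for NF-kB target genes (26 tested).

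Card9, the adaptor of C-type lectin receptors, had 115, 138 and 138 CPM in knockout-labelled libraries and 168, 198 and 159 CPM in wild type, without overlap (log2 fold change -0.42 ± 0.15, SE; edgeR unadjusted p = 0.0217, adjusted p = 0.637). Dok3, an adaptor that restrains receptor signalling in myeloid cells, had 33.5, 32.7 and 37.7 CPM in the knockout-labelled libraries, against 51.8, 50.4 and 44.6 CPM in wild type, also without overlap (log2 fold change -0.50 ± 0.13, SE; edgeR unadjusted p = 0.00626, adjusted p = 0.637). Nlrp1b, a sensor of the inflammasome in mice, had 53.2, 69.5 and 70.2 CPM in the knockout-labelled libraries, against 77.7, 139.8 and 95.7 CPM in wild type (log2 fold change -0.70 ± 0.23, SE; edgeR adjusted p = 0.637). With the microglial scaling the log2 fold changes of Card9, Dok3 and Nlrp1b were -0.16, -0.22 and -0.45. Zbp1, a sensor of Z-form nucleic acid, had 23, 10 and 29 counts in knockout-labelled libraries and 31, 27 and 74 in wild type (log2 fold change -1.66 ± 0.55, SE; edgeR adjusted p = 0.637). Ikbke, a kinase that activates interferon regulatory factors, had 22.4 CPM in wild type replicate 4 and 2.52 to 5.35 CPM in the other 5 libraries, and its fitted value of -1.52 ± 0.73 (SE; edgeR adjusted p = 0.637) was 0.36 without wild type replicates 3 and 4.

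The smallest p-values of the other lists belonged to Cnpy3 and Lgmn, which help receptors to fold and be cut, at log2 fold changes of -0.34 and -0.24, to Pik3ap1, an adaptor that dampens receptor signals, at -0.47, and to Irf8 and Irf5, myeloid transcription factors, at -0.35 and -0.36. Il6, a cytokine gene driven by NF-kB, had 38, 28 and 60 counts in knockout-labelled libraries and 105, 69 and 27 in wild type (log2 fold change -1.17 ± 0.51, SE; edgeR adjusted p = 0.637), and Bcl2l1, a survival gene, had a log2 fold change of -0.39. Ccl2, a chemokine gene driven by NF-kB and chosen after its values were seen, had 42.1, 48.3 and 42.0 CPM in the knockout-labelled libraries, against 79.6, 8.43 and 2.85 CPM in wild type, and in the fit without wild type replicate 1 it passed as higher, at an edgeR adjusted p of 0.0378, where 1.77% of all genes tested were called higher.

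**Figure D5:**
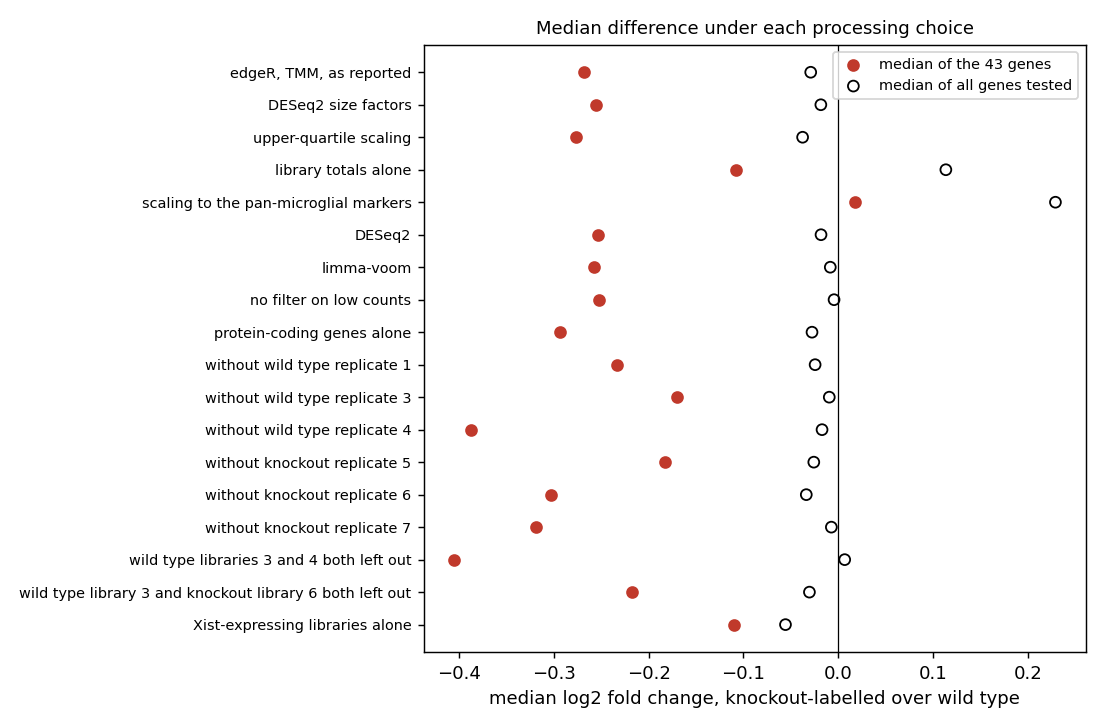
Median log2 fold change, knockout-labelled over wild type, of the 43 genes (filled) and of all genes tested (open) under each processing choice. The 43 genes lie left of all genes in each of the 18 settings, between -0.40 and 0.02, and closest to them, at -0.11 against -0.06, in the Xist-expressing libraries alone.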

How the data were processed

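Each library was deposited as whole-number gene counts in a file of its own, neither normalized nor pooled by the authors. Per the submitters' processing notes, Trim Galore 0.60, STAR 2.7, HTSeq 1.31 and the build mm10 were used, and per the labels' protocols libraries were made from total RNA with a stranded kit. The sources used here do not give the annotation, the strand setting or the handling of reads with several alignments. The 5 summary lines per file, with 39.95% to 58.2% of reads outside genes and 1.94% to 14.5% ambiguous, stayed out of totals and tests. Of 53379 identifiers 53274 matched GENCODE M21 (GRCm38), which gave symbols, coordinates and exonic lengths.

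Knockout-labelled and wild type libraries were compared by the quasi-likelihood test in edgeR 4.0.16 in R 4.3.3 (TMM, default expression filter by group, robust shrinkage, Benjamini-Hochberg adjustment over 17221 genes, two-sided). The code was also run on simulated counts with planted changes larger than any member's, which does not test its power for small changes. SE is derived from the F statistic. A count of 0 allows up to 3 counts, or 0.0982 to 0.22 CPM per library, for counting error only. Libraries within a group differed by a chi-square of at least 49.9 per degree of freedom over genes, so each was counted as 1 sample.

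The members and gene lists were chosen with earlier results of these data known, so no p-value is given for a list. Named members are those with separated groups and, per role, those with the highest level per length, the largest difference and the smallest p; other pathway genes are the pair with the smallest p per list. Other members, Ccl2, Cd36 and the checks of sex were named after their values were seen. Alternatives were other scalings, DESeq2 1.42.0, limma-voom (limma 3.58.1), no expression filter, protein-coding genes alone and leaving out libraries. Sequences shared with other genes were counted in windows of 50 bases of the annotated transcripts.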

Additional observations from a re-analysis of the deposited data

How the results depend on the processing

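No paired analysis was possible because the groups share no replicate numbers. For the 43 genes, edgeR called 0 higher and 0 lower in every alternative, except that Nfkbiz passed as higher without wild type replicate 1, so that leaving out 1 library gave 0 to 1 higher. The further pathway genes gave 0 higher, or 0 to 2 without 1 library (Cd36 and Ccl2, without wild type replicate 1), and 0 lower. Over all genes the counts were 1 higher and 0 lower, against 2 higher with the microglial scaling, 15 higher and 6 lower with DESeq2, 4 and 1 without the expression filter, and 0 higher with protein-coding genes alone. Leaving out 1 library gave 1 to 306 higher and 0 to 15 lower. Leaving out wild type libraries 3 and 4 together gave 6 higher and 2 lower, and leaving out wild type library 3 with knockout library 6 gave 0 higher. The Xist-expressing libraries alone, a setting chosen after seeing the data, gave 0 higher. In these last settings, with 1 or 2 libraries in a group, a lone library is assumed to vary like the others, and the cause of the changes was not tested.

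The median log2 fold change of the members ran from -0.39 to -0.17 without 1 library, and was -0.40 without wild type libraries 3 and 4. Of 510 values of the 30 named genes, 495 kept direction and side of the threshold. The direction turned with the microglial scaling for Traf6 (0.088), Tlr7 (0.081), Irak2 (0.11), Rela (0.086) and Lgmn (0.049), whose construction sets the microglial markers to no change on average. Without wild type library 3 and knockout library 6 it turned for Irak2 (0.078) and Rela (0.13), and in the Xist-expressing libraries for Irak2 (0.031). Without wild type libraries 3 and 4 it turned for Nfkbia (-0.40), Nfkbid (-0.51), Nfkbiz (-0.39) and Ikbke (0.36). It also turned for Rela without wild type replicate 3 (0.051) and for Nfkbia without wild type replicate 4 (-0.056), the full ranges without 1 library being -0.39 to 0.051 and -0.056 to 1.013. Tnfaip3, not among the 30 named genes, ran from -0.022 to 0.993 without 1 library. Depth limits Irak3, Nod2, Nlrc4 and Tlr8, which had under 300 counts in each library.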
